A study of Mus musculus with 8 samples.

Results

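The genes described here are 45 genes of glycolysis, the pentose phosphate pathway and the response to hypoxia, of 24421 gene symbols counted in mouse bone marrow-derived macrophages. They were taken by symbol from a list of pathway genes written with earlier results of these data known, and comprise 26 genes of glycolysis, 6 of the pentose phosphate pathway and 13 of the hypoxia response. The CKO group comprised 4 libraries from OPA1f/f mice carrying Lyz2-Cre (replicates 2, 6, 7 and 8), in which both Opa1 alleles carry loxP sites and Cre recombinase is expressed from the Lyz2 locus, active in macrophages and other myeloid cells. The FLOX group comprised 4 libraries from OPA1f/f mice without Cre (replicates 3, 4, 6 and 7). All 8 cultures carried the floxed Opa1 alleles and had received interleukin 4 (IL-4), the cytokine of alternative macrophage activation, for 24 h, so that no unstimulated cells and no cells with Cre but without floxed alleles were compared. Animal age was not given in the sources used here, nor whether libraries of a group came from separate mice. The p-values therefore measure the spread between these libraries, which may be technical.

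Glycolysis converts glucose to pyruvate in the cytosol and yields ATP without oxygen, and lactate dehydrogenase then regenerates the cofactor that keeps it running. The pentose phosphate pathway branches off at glucose phosphate and supplies NADPH and ribose. Hypoxia-inducible factors (HIF) are pairs of an oxygen-regulated alpha subunit and the stable partner ARNT. In oxygen, EGLN prolyl hydroxylases mark the alpha subunit for the ubiquitin ligase component VHL. When this fails, HIF drives genes of glucose uptake, glycolysis, lactate export and collagen hydroxylation. Inflammatory macrophages are known for high glycolysis, and macrophages activated by IL-4 for reliance on mitochondrial respiration, the process that OPA1, a fusion and cristae protein of the inner mitochondrial membrane, helps to maintain.

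The libraries held 11764855 to 15592868 read pairs assigned to genes in CKO and 13770002 to 18939948 in FLOX. Levels are in CPM, the counts scaled to a common library size with TMM factors, and group values are means ± SD over the 4 libraries of each group. Adjusted p-values are from the quasi-likelihood test of edgeR with Benjamini-Hochberg adjustment over all 11519 tested genes. Opa1 had 94.6, 98.6, 105 and 103 CPM in CKO replicates 2, 6, 7 and 8, against 104, 114, 108 and 130.4 CPM in FLOX replicates 3, 4, 6 and 7. CKO replicate 7 lay above FLOX replicate 3, so that the ranges overlapped (log2 fold change -0.19 ± 0.07 (SE), adjusted p = 0.0544), and gene totals do not resolve the floxed exons. Lyz2, the driver locus, had 2387, 1809, 1923 and 2004 CPM in CKO, against 8294, 7308, 7247 and 6906 CPM in FLOX, far lower in every CKO library (log2 fold change -1.87 ± 0.10 (SE), adjusted p = 1.05e-07). The presence of Cre, the Opa1 deletion and any unlabelled batch cannot be told apart here. The macrophage markers Adgre1, Csf1r, Cd68, Itgam and Mrc1 were abundant in every library, and 7 of 8 islet markers had 0 counts in all 8 libraries, which matters because the extraction protocol in the labels names islets. The 9 cycling-cell markers were all higher in CKO, with a summed level of 2822 to 3376 CPM in CKO and 1532 to 1842 CPM in FLOX. Of 9 macrophage markers other than Lyz2, Fcgr1 was higher, Csf1r, Cd68 and Mertk were lower and 5 were not called, and their sum was 7191 to 7754 CPM in CKO and 7998 to 8362 CPM in FLOX. With Lyz2 the sum was 9113 to 10141 CPM in CKO and 15267 to 16292 CPM in FLOX. Neutrophil and precursor markers summed to 4.56 to 10.1 CPM in CKO and 1.92 to 3.23 CPM in FLOX. Of the endothelial markers, Vwf was lower (log2 fold change -0.57) and Kdr higher (0.61), the defining Cdh5 was at most 0.264 CPM in any library, and the sum, mostly Vwf, was 253 to 289 CPM in CKO and 333 to 419 CPM in FLOX. What part these marker shifts have in the results below was not tested. In bulk RNA, fewer cells of a type and less RNA per cell cannot be told apart.

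Promoters of 6 members are shown, picked as examples that carry, or lack, the core of the hypoxia response element, the DNA motif that HIF binds. They comprise the collagen hydroxylase genes P4ha2 and P4ha1, the HIF hydroxylase gene Egln3 and the lactate exporter gene Slc16a3, which were all higher in CKO, and the enolase gene Eno2 and the glucose transporter gene Slc2a6, which were both lower. Each stretch is the 250 bases before the start of a RefSeq transcript (GRCm38.p6), for Slc16a3 the first 236 of them, outside the exons that GENCODE M21 gives for the gene, written 5′ to 3′ on the strand of the gene. In P4ha2 and Slc16a3 it lies inside the GENCODE gene, in an intron of transcripts that start farther upstream. Capitals mark ACGTG or GCGTG or their reverse complements CACGT and CACGC, and the palindrome CACGTG would hold ACGTG on both strands.
P4ha2, chr11:54100674-54100923, plus strand: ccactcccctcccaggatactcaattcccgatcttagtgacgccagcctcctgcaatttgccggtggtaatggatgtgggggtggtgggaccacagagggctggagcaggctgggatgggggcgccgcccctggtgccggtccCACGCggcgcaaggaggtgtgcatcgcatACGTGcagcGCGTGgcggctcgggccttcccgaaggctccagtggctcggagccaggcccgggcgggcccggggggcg
P4ha1, chr10:59323046-59323295, plus strand: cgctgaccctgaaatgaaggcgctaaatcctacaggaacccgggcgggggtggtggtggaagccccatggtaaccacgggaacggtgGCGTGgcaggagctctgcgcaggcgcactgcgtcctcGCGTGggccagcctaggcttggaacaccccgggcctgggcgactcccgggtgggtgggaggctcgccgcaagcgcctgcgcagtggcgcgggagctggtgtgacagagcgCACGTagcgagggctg
Egln3, chr12:54203875-54204124, minus strand: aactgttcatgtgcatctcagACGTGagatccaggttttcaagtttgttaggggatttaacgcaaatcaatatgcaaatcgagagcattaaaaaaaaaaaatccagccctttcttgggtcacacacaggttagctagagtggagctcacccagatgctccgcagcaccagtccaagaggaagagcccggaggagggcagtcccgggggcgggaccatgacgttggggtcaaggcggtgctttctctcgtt
Slc16a3, chr11:120948817-120949052, plus strand: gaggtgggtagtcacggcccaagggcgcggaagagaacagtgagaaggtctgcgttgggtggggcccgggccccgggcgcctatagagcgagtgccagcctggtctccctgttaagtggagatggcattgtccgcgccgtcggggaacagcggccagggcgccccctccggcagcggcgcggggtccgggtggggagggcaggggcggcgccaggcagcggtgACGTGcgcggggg
Eno2, chr6:124769674-124769923, minus strand: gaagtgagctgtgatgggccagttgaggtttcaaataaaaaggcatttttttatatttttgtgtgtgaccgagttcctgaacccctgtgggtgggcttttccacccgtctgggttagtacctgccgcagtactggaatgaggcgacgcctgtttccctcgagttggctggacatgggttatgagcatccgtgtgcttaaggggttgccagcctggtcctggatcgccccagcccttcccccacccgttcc
Slc2a6, chr2:27027999-27028248, minus strand: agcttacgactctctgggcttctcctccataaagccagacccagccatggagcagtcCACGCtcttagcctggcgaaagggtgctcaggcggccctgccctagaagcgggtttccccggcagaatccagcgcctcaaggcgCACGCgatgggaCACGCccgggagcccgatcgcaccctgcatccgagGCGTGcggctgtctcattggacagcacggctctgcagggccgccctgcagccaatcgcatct

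In these stretches, P4ha2 and P4ha1 had 1 ACGTG and 2 GCGTG matches each, and Egln3 and Slc16a3 had 1 ACGTG each. Slc2a6 had 4 GCGTG matches and Eno2 had 0 of either. RefSeq windows of 300 bases were found for 44 of the 45 members (Epas1 had none). ACGTG on either strand occurred in 26 of these 44 genes (59.1%), in 29.8% of the 8896 tested genes with a window and in 21.8% of all 27025 genes with a window. GCGTG occurred in 31 of the 44 (70.5%), in 56.7% of the tested genes and in 35.2% of all. Among members, ACGTG was found in 13 of the 17 that were higher in CKO, in 4 of 8 that were lower and in 9 of 18 that were not called. GCGTG was found in 12 of the same 17 (70.6%), in 5 of the 8 (62.5%) and in 13 of the 18 (72.2%). The printed promoters were picked and do not stand for all members. Pfkl, Pfkp, Tpi1 and Pdk1 were higher and lacked ACGTG, whereas Aldoc, Hk3, Pfkfb3 and G6pdx were lower and carried it. A match describes letters in a window and not a bound site.

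Of 44 tested members (Eno1 was too low to test), 17 were higher and 9 lower in CKO, at an adjusted p below 0.05. Differences between the groups were widespread: 23.8% of all tested genes were higher and 21.6% lower by the same rule, 45.4% in all, and the members' count is to be read against these shares. The median log2 fold change (CKO over FLOX) was 0.09 over the glycolysis members, 0.02 over the pentose phosphate members and 0.28 over the hypoxia members, beside -0.02 over all tested genes. For 24 members, 17 higher and 7 lower, the CPM of CKO and FLOX libraries occupied separate ranges, beside 42.7% of all tested genes. Past the same threshold, 12 members had an absolute log2 fold change of at least 0.5, beside 19.3% of all tested genes, and Egln3, P4ha2 and Eno2 differed by more than 2-fold, beside 5.84%.

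**Figure D1:**
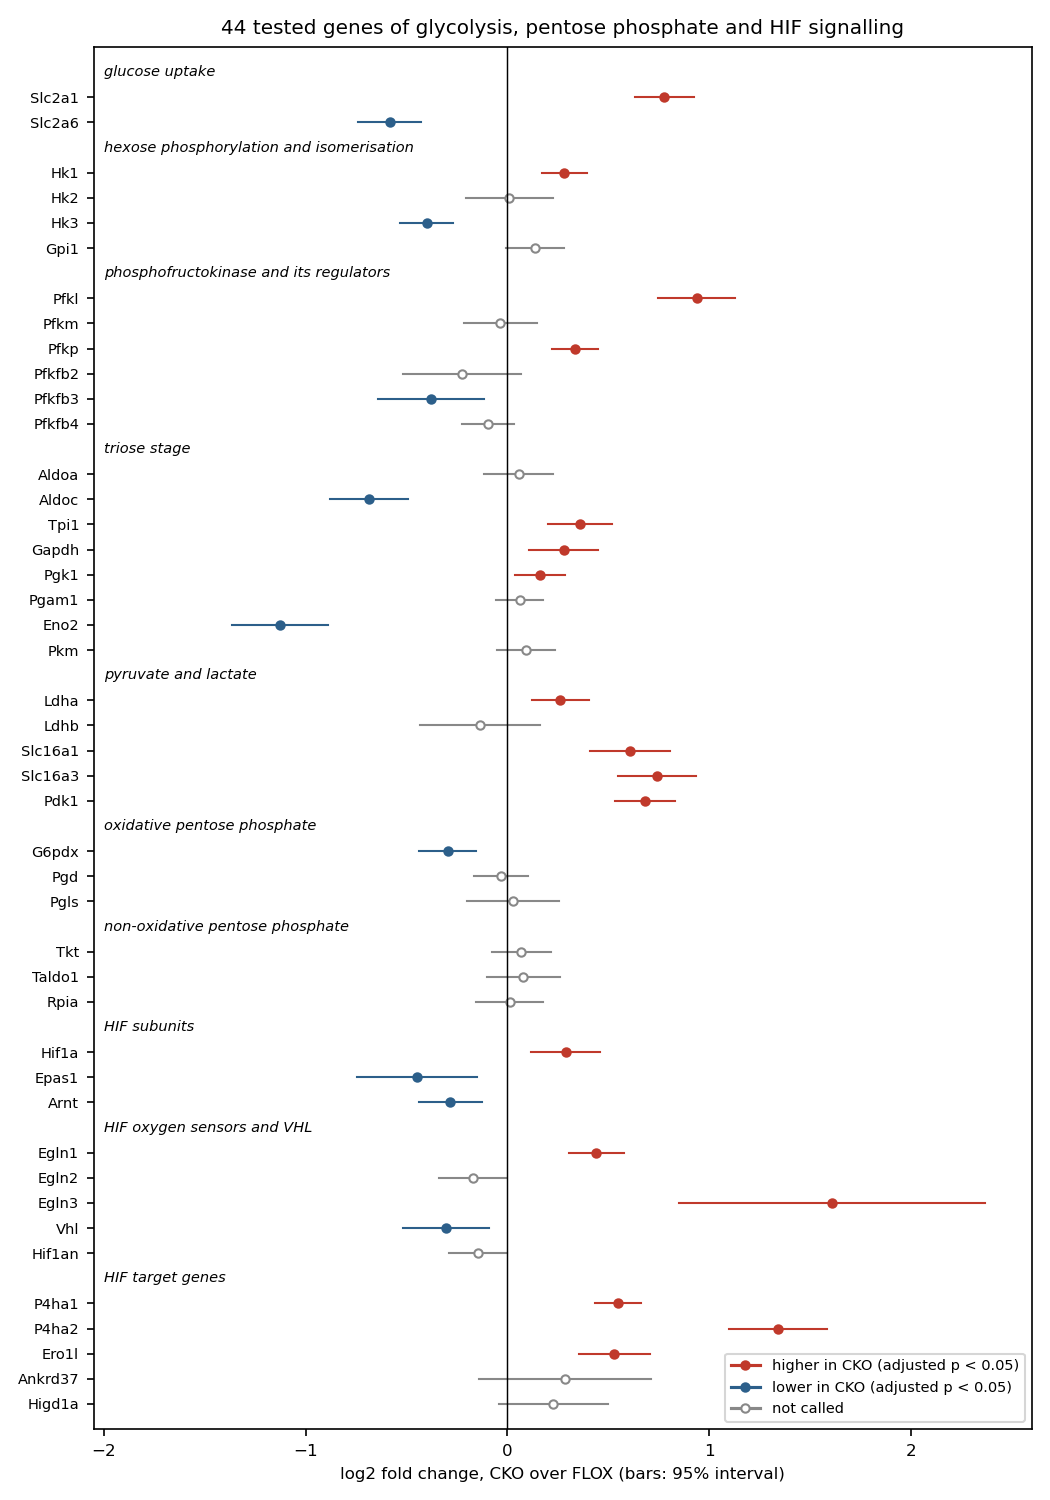
Log2 fold change of CKO over FLOX with its 95% interval for the 44 tested members, ordered by role (red, higher at an adjusted p below 0.05; blue, lower; open grey, not called). Slc2a1, Pfkl, Slc16a1, Slc16a3, Pdk1, Egln3 and P4ha2 lie well right of 0, Eno2 at -1.13 lies farthest left, and 5 of the 6 pentose phosphate genes have intervals that include 0.

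Glucose transporters moved in opposite directions. Slc2a1 (GLUT1; ENSMUSG00000028645, chromosome 4, 119108711 to 119137983, plus strand; GENCODE M21 on GRCm38, as for all genes below) carries basal glucose uptake in most cells. It had 49.7, 50.2, 49.7 and 55.7 CPM in CKO replicates 2, 6, 7 and 8, against 31.4, 30.8, 29.2 and 28.3 CPM in FLOX replicates 3, 4, 6 and 7. All 4 CKO libraries were higher than all 4 FLOX libraries, by 1.72-fold (log2 fold change 0.78 ± 0.07 (SE), adjusted p = 2.43e-06). Slc2a6 (GLUT6; ENSMUSG00000036067, chromosome 2, 27021363 to 27027998, minus strand) encodes a transporter of the lysosomal membrane in macrophages. It had 87.4, 71.7, 80.9 and 71.8 CPM in CKO, against 122, 118, 114 and 112 CPM in FLOX, with replicates in the same order as for Slc2a1 and in every list of 4 values below. Here every CKO library was below every FLOX library (log2 fold change -0.58 ± 0.07 (SE), adjusted p = 3.91e-05). Per kb of exon, Slc2a6 remained the more abundant of the pair: the share of Slc2a1 in their sum was 30.3% ± 2.91 in CKO and 14.4% ± 0.197 in FLOX.

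Hexokinases, which trap glucose in the cell as glucose phosphate, split by isozyme. Hk1 (the isozyme of most tissues, bound to mitochondria) had 145, 141, 140.3 and 138 CPM in CKO, against 118, 115, 117 and 114 CPM in FLOX, a rise without overlap (log2 fold change 0.28 ± 0.05 (SE), adjusted p = 0.000676). Hk3, the isozyme typical of myeloid cells, had 428, 404, 412 and 370.4 CPM in CKO, against 551, 543, 511 and 524 CPM in FLOX. It fell in CKO, again without overlap (log2 fold change -0.40 ± 0.06 (SE), adjusted p = 0.000195). Hk2, the inducible isozyme under HIF control, had 53.5, 58.5, 56.5 and 59.9 CPM in CKO, against 54.0, 68.7, 46.7 and 58.2 CPM in FLOX. The FLOX libraries spanned more than the CKO libraries, and the log2 fold change of 0.01 (95% interval -0.21 to 0.23, adjusted p = 0.95) did not pass. Hk3 made up 75.4% ± 1.08 in CKO and 82.3% ± 0.421 in FLOX of hexokinase CPM per kb and Hk1 18.3% ± 0.512 in CKO and 12.4% ± 0.483 in FLOX. The next enzyme, the isomerase Gpi1, averaged 403 ± 15.1 CPM for CKO against 367 ± 28.8 CPM for FLOX (log2 fold change 0.14, adjusted p = 0.11). It passed without FLOX replicate 3 (adjusted p = 0.0346), its highest FLOX library, whose removal raises the CKO excess by construction.

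Phosphofructokinase, the committed step, was higher in CKO through its liver and platelet subunits. Pfkl (ENSMUSG00000020277, chromosome 10, 77986947 to 78010083, minus strand) had 39.3, 39.5, 42.7 and 39.0 CPM in CKO, against 21.3, 18.5, 24.4 and 19.2 CPM in FLOX. The CKO libraries were tightly grouped and all above FLOX (log2 fold change 0.94 ± 0.09 (SE), adjusted p = 4.55e-06), the largest rise in log2 terms among the glycolysis members. Pfkp, the most abundant subunit, had 275, 272, 267 and 267 CPM in CKO, against 219.9, 212, 219.9 and 204 CPM in FLOX, also without overlap (log2 fold change 0.34 ± 0.05 (SE), adjusted p = 0.000225). Exons of Pitrm1 on the other strand cover 17.4% of its exon bases, and the counting is not stated to use strand. The muscle subunit Pfkm averaged 17.3 ± 0.967 CPM for CKO against 17.7 ± 1.42 CPM for FLOX (log2 fold change -0.03, 95% interval -0.22 to 0.15). Per kb, Pfkl supplied 13.5% ± 0.583 in CKO and 9.11% ± 0.823 in FLOX of the 3 subunits.

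None of the 3 members among the bifunctional PFKFB enzymes, which make or remove the sugar bisphosphate that activates phosphofructokinase, was called higher. Pfkfb3, the isoform with the strongest kinase activity, had 29.7, 26.8, 28.3 and 32.2 CPM in CKO, against 32.9, 47.0, 31.2 and 41.6 CPM in FLOX. FLOX replicates 4 and 7 were high, while FLOX replicates 3 and 6 lay at or near the CKO range (log2 fold change -0.38 ± 0.12 (SE), adjusted p = 0.0219). Its call ended without CKO replicate 2 (adjusted p = 0.0667), 6 (0.0928) or 7 (0.0814), and likewise when FLOX replicate 4 (0.059) or 7 (0.052) was left out. Pfkfb2 averaged 39.2 ± 2.26 CPM for CKO against 45.9 ± 10.2 CPM for FLOX and was not called (log2 fold change -0.22). It passed without FLOX replicate 3 (log2 fold change -0.34, adjusted p = 0.0144), its lowest FLOX library, whose removal deepens the fall by construction. Pfkfb4 averaged 55.4 ± 2.78 CPM for CKO against 59.1 ± 2.12 CPM for FLOX (log2 fold change -0.09, 95% interval -0.22 to 0.04).

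**Figure D2:**
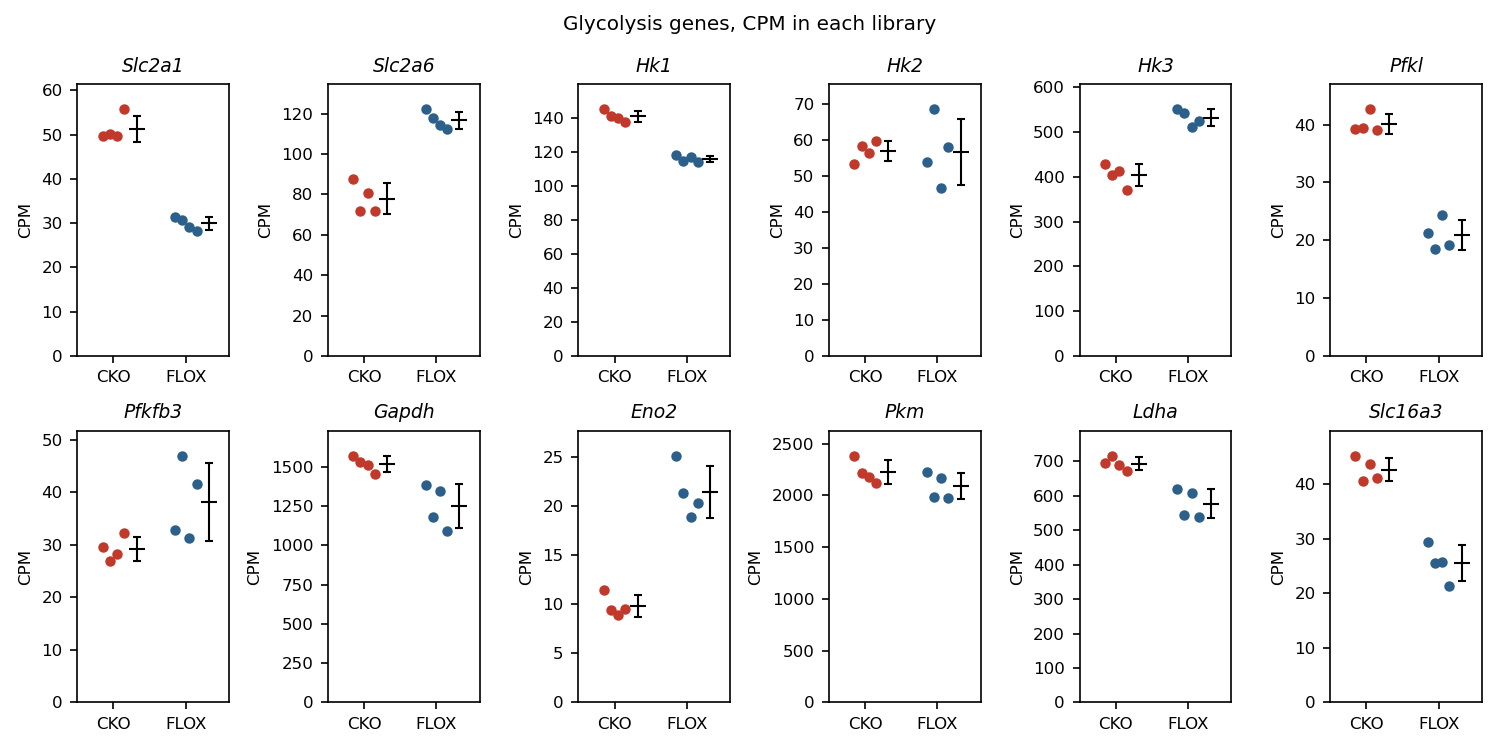
CPM of 12 glycolysis genes in each library (points; replicates from left to right as 2, 6, 7, 8 in CKO and 3, 4, 6, 7 in FLOX), with the mean and SD of each group as a bar. The groups part in Slc2a1, Slc2a6, Hk1, Hk3, Pfkl, Gapdh, Eno2, Ldha and Slc16a3 and overlap in Hk2, Pfkfb3 and Pkm.

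In the triose stage, where ATP is regained, 3 abundant enzymes rose by at most 0.36 on the log2 scale and Eno2 and Aldoc fell. Gapdh had 1570.2, 1532, 1508 and 1451 CPM in CKO, against 1381, 1179, 1348 and 1088 CPM in FLOX. The lowest CKO library was above the highest FLOX library, FLOX replicate 3 (log2 fold change 0.28 ± 0.08 (SE), adjusted p = 0.0123). Tpi1, the triose isomerase, averaged 346 ± 10.7 CPM for CKO against 269 ± 27.2 CPM for FLOX (log2 fold change 0.36 ± 0.07 (SE), adjusted p = 0.00146). Pgk1, which makes ATP, averaged 609 ± 18.0 CPM for CKO against 544 ± 22.5 CPM for FLOX (log2 fold change 0.16 ± 0.06 (SE), adjusted p = 0.034). The Pgk1 call ended without a filter on low counts (adjusted p = 0.0755), without CKO replicate 6 (0.063) or 8 (0.0521), and likewise when FLOX replicate 4 (0.0695) or 7 (0.083) was left out.

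Pkm, the pyruvate kinase gene, had 2383, 2220.0, 2173 and 2123 CPM in CKO, against 2221, 1988, 2167 and 1976 CPM in FLOX. The groups overlapped, with a log2 fold change of 0.09 (95% interval -0.05 to 0.24, adjusted p = 0.288). The counts sum both splice forms of Pkm. Aldoa, the main aldolase, averaged 948 ± 74.0 CPM for CKO against 912 ± 81.1 CPM for FLOX (log2 fold change 0.06), and Pgam1, the mutase, 309 ± 8.00 CPM for CKO against 296 ± 10.5 CPM for FLOX (log2 fold change 0.06). Neither passed.

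Eno2 (ENSMUSG00000004267, chromosome 6, 124760053 to 124769673, minus strand), the enolase known from neurons, had 11.4, 9.43, 8.94 and 9.50 CPM in CKO, against 25.1, 21.3, 18.8 and 20.3 CPM in FLOX. CKO stood at 45.8% of FLOX, the largest fall among the 44 tested members (log2 fold change -1.13 ± 0.11 (SE), adjusted p = 6.09e-06). Aldoc, the aldolase known from brain, had 8.97, 8.96, 8.44 and 9.10 CPM in CKO, against 15.2, 13.4, 15.2 and 13.1 CPM in FLOX, again without overlap (log2 fold change -0.68 ± 0.09 (SE), adjusted p = 5.95e-05). Per kb, Aldoc supplied 0.803% ± 0.0592 in CKO and 1.33% ± 0.0196 in FLOX of the 2 aldolases.

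The main enolase gene, Eno1, could not be measured. It had 4 counts over the 8 libraries (0 to 2 in each), and its retrogene copy Eno1b had 1 to 9. In GENCODE M21, 50.7% of the 75-base windows of the Eno1 transcript occur also in transcripts of other genes, 49.4% in Eno1b. Windows were shared for 88.1% of Gapdh, 67.5% of Pgk1, 64.1% of Pfkfb2, 40.6% of Pgam1 and 34.3% of Higd1a as well. The share was 19.6% for Pkm, 16.7% for Ldhb and 14.8% for Gpi1. Most were shared with pseudogenes or overlapping genes that the deposited counts do not list. Exons of other genes cover 27.8% of the exon bases of Pfkfb2, 22.5% of Higd1a, 12.9% of Pkm and 12.3% of Gpi1. Pairs listed as having more than 1 alignment made up 5.03 to 5.31% in CKO and 5.38 to 6.01% in FLOX. Whether such pairs were also counted for genes was not given in the sources used here. Pairs listed as of low alignment quality made up 12.17 to 15.46% in CKO and 12.99 to 18.02% in FLOX. Gapdh and Pgk1, with larger shared parts than Eno1, had 15334 to 24961 and 6985 to 10442 counts per library. Why Eno1 had so few counts was not tested. Levels of the genes with shared windows are uncertain, and the part of any lost reads in their differences was not tested.

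Of 5 members that handle pyruvate and lactate, Ldha, Slc16a3, Slc16a1 and Pdk1 were higher in CKO. Ldha, which makes lactate, had 696, 717, 689 and 671 CPM in CKO, against 620.3, 544, 607 and 539 CPM in FLOX, with no overlap (log2 fold change 0.26 ± 0.06 (SE), adjusted p = 0.00504). Slc16a3 (MCT4; ENSMUSG00000025161, chromosome 11, 120948480 to 120960868, plus strand), the lactate exporter of glycolytic cells, had 45.3, 40.7, 43.7 and 41.2 CPM in CKO, against 29.4, 25.6, 25.8 and 21.3 CPM in FLOX. Every CKO library lay above the highest FLOX library, and the rise was 1.67-fold (log2 fold change 0.74 ± 0.09 (SE), adjusted p = 3.23e-05). Slc16a1 (MCT1), which carries lactate and pyruvate either way, had 25.8, 29.3, 27.9 and 33.0 CPM in CKO, against 19.98, 21.0, 17.7 and 17.7 CPM in FLOX and also rose without overlap (log2 fold change 0.61 ± 0.09 (SE), adjusted p = 0.00018). Pdk1 (ENSMUSG00000006494, chromosome 2, 71873224 to 71903858, plus strand), a kinase that shuts off pyruvate dehydrogenase, had 56.7, 62.4, 55.9 and 60.2 CPM in CKO, against 34.7, 40.2, 35.1 and 36.8 CPM in FLOX. All CKO libraries exceeded all FLOX libraries (log2 fold change 0.68 ± 0.07 (SE), adjusted p = 7.22e-06). Ldhb, the isozyme of oxidative tissues, was scarce at 2.90 ± 0.240 CPM for CKO against 3.20 ± 0.296 CPM for FLOX (log2 fold change -0.14, 95% interval -0.44 to 0.16). Summed over these 5 genes, the level was 827 ± 18.2 CPM for CKO against 662 ± 43.2 CPM for FLOX.

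**Figure D3:**
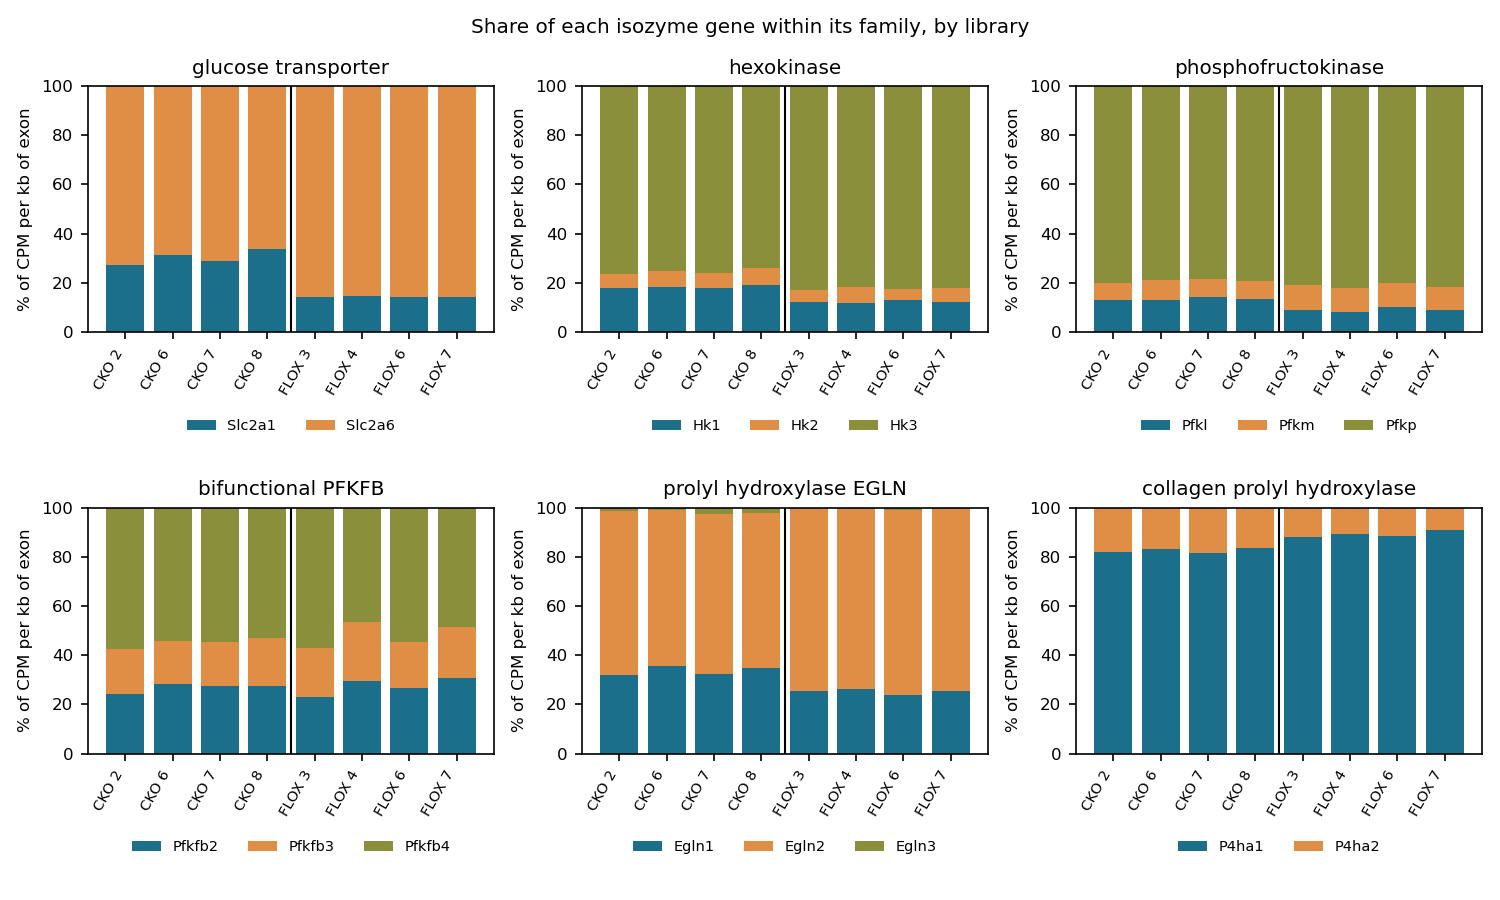
Share of each gene among the members of its family, as a percentage of summed CPM per kb of exon, in each of the 4 CKO libraries (left of the line) and the 4 FLOX libraries (right). Genes of a family that are not members, such as Slc2a3, Slc2a8, Slc2a9 and Pfkfb1, are left out. The share of Slc2a1 was 30.3% ± 2.91 in CKO and 14.4% ± 0.197 in FLOX, that of Hk1 18.3% ± 0.512 in CKO and 12.4% ± 0.483 in FLOX, that of Egln1 33.6% ± 1.92 in CKO and 25.3% ± 0.958 in FLOX and that of P4ha2 17.5% ± 0.784 in CKO and 10.8% ± 1.30 in FLOX.

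Measured per kb of exon, the most abundant member was Gapdh (1014 CPM per kb in CKO and 836 CPM per kb in FLOX), followed by Pkm (856 CPM per kb in CKO and 803 CPM per kb in FLOX). Aldoa (369.8 CPM per kb in CKO and 355 CPM per kb in FLOX), Ldha (366 CPM per kb in CKO and 305 CPM per kb in FLOX) and Pgk1 (334 CPM per kb in CKO and 298 CPM per kb in FLOX) came next. The genes that rose most lay far lower, with Slc2a1 at 15.7 CPM per kb in CKO and 9.18 CPM per kb in FLOX, Pfkl at 10.8 CPM per kb in CKO and 5.60 CPM per kb in FLOX and Slc16a3 at 9.60 CPM per kb in CKO and 5.74 CPM per kb in FLOX. Eno1 could not be measured, so this ranking and the sums that follow lack it in effect. The summed CPM of the 26 glycolysis members came to 8382 ± 283 CPM for CKO against 7669.9 ± 466 CPM for FLOX. The triose stage supplied 5970.2 ± 235 CPM for CKO against 5394 ± 399 CPM for FLOX of it. FLOX replicate 3 lay inside the CKO range of that sum.

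Of the 6 pentose phosphate members, the entry enzyme alone passed the test. G6pdx (ENSMUSG00000031400, chromosome X, 74409483 to 74429194, minus strand), the glucose phosphate dehydrogenase that makes NADPH, had 312, 275, 263 and 264 CPM in CKO, against 353, 332, 345 and 338 CPM in FLOX. It fell without overlap (log2 fold change -0.30 ± 0.07 (SE), adjusted p = 0.00271), where 21.6% of all tested genes were lower. Pgls, the lactonase, averaged 35.9 ± 2.70 CPM for CKO against 35.1 ± 5.46 CPM for FLOX and Pgd, the second NADPH-forming enzyme, 410.0 ± 14.7 CPM for CKO against 419 ± 26.8 CPM for FLOX. Their log2 fold changes were 0.03 (95% interval -0.20 to 0.25) and -0.03 (-0.17 to 0.10).

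Transketolase (Tkt), which returns sugars to glycolysis, had 425, 401, 399.8 and 379 CPM in CKO, against 394, 353, 419 and 365 CPM in FLOX. The groups overlapped (log2 fold change 0.07, 95% interval -0.08 to 0.21). Taldo1, the transaldolase, averaged 296 ± 11.8 CPM for CKO against 280.2 ± 35.5 CPM for FLOX (log2 fold change 0.08, 95% interval -0.10 to 0.26) and Rpia, the ribose isomerase, 21.7 ± 1.35 CPM for CKO against 21.5 ± 1.23 CPM for FLOX (0.01, 95% interval -0.15 to 0.18). FLOX replicates 3 and 6 again stood above FLOX replicates 4 and 7 for Tkt and Taldo1. Without these highest libraries, Taldo1, Tkt and Pgls passed as higher in CKO, a shift that leaving out the highest FLOX values produces by construction and that supports nothing.

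The HIF subunits shifted in opposite directions. Hif1a (ENSMUSG00000021109, chromosome 12, 73901375 to 73947530, plus strand), the alpha subunit most tied to glycolysis, had 128, 138, 135 and 148 CPM in CKO, against 101, 120.1, 103 and 125 CPM in FLOX. The lowest CKO library was just above the highest FLOX library (log2 fold change 0.29 ± 0.08 (SE), adjusted p = 0.0102). Epas1 (HIF-2 alpha) was scarce and had 4.95, 5.67, 5.24 and 5.80 CPM in CKO, against 6.31, 8.55, 6.26 and 8.66 CPM in FLOX, all CKO libraries being lower (log2 fold change -0.45 ± 0.14 (SE), adjusted p = 0.0184). The Epas1 call ended without CKO replicate 2 (adjusted p = 0.064) or 7 (0.0665), and likewise when FLOX replicate 4 (0.0506) or 7 (0.0516) was left out. The partner Arnt averaged 69.8 ± 3.62 CPM for CKO against 85.0 ± 7.15 CPM for FLOX and fell (log2 fold change -0.28 ± 0.07 (SE), adjusted p = 0.00619). Hif1a held 96.3% ± 0.110 in CKO and 93.9% ± 0.432 in FLOX of the CPM per kb of the 2 alpha subunits. HIF alpha is controlled mainly through protein stability, which RNA counts do not measure.

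Among the oxygen sensors, the hydroxylase genes Egln1 and Egln3 were higher and Egln2 was not called. Egln1 (PHD2), the main HIF prolyl hydroxylase, had 47.4, 49.8, 46.2 and 45.9 CPM in CKO, against 37.2, 33.4, 34.9 and 33.8 CPM in FLOX, without overlap (log2 fold change 0.44 ± 0.06 (SE), adjusted p = 0.000118). Egln3 (PHD3; ENSMUSG00000035105, chromosome 12, 54178981 to 54203860, minus strand) had 1.51, 1.12, 2.65 and 2.36 CPM in CKO, against 0.421, 0.605, 0.972 and 0.426 CPM in FLOX. It is rare here, with 17 to 43 counts per CKO library and 6 to 18 per FLOX library, and FLOX replicate 6 approached CKO replicate 6 (log2 fold change 1.61 ± 0.35 (SE), adjusted p = 0.00244). Egln2 (PHD1) averaged 55.8 ± 4.39 CPM for CKO against 62.8 ± 4.98 CPM for FLOX (log2 fold change -0.17, adjusted p = 0.0826). It passed without FLOX replicate 4 (adjusted p = 0.041), its lowest FLOX library, whose removal deepens the fall by construction.

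Vhl, which targets hydroxylated HIF alpha for degradation, had 37.8, 35.4, 45.7 and 38.1 CPM in CKO, against 46.6, 57.0, 43.2 and 47.3 CPM in FLOX. CKO replicate 7 lay within the FLOX range (log2 fold change -0.30 ± 0.10 (SE), adjusted p = 0.024). The Vhl call ended without CKO replicate 2 (adjusted p = 0.0844), 6 (0.111) or 8 (0.0855), without FLOX replicate 4 (0.0674), and without CKO replicate 2 and FLOX replicate 6 together (0.0519). Hif1an, the asparagine hydroxylase that blocks HIF activity, averaged 49.98 ± 2.31 CPM for CKO against 55.4 ± 3.71 CPM for FLOX (log2 fold change -0.15, adjusted p = 0.0889). It passed without FLOX replicate 3 (adjusted p = 0.037), its lowest FLOX library, whose removal deepens the fall by construction. Of 13 hypoxia members 6 were higher and 3 lower, beside 23.8% higher and 21.6% lower over all tested genes. Without CKO replicate 2 the number of hypoxia members lower was 1.

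**Figure D4:**
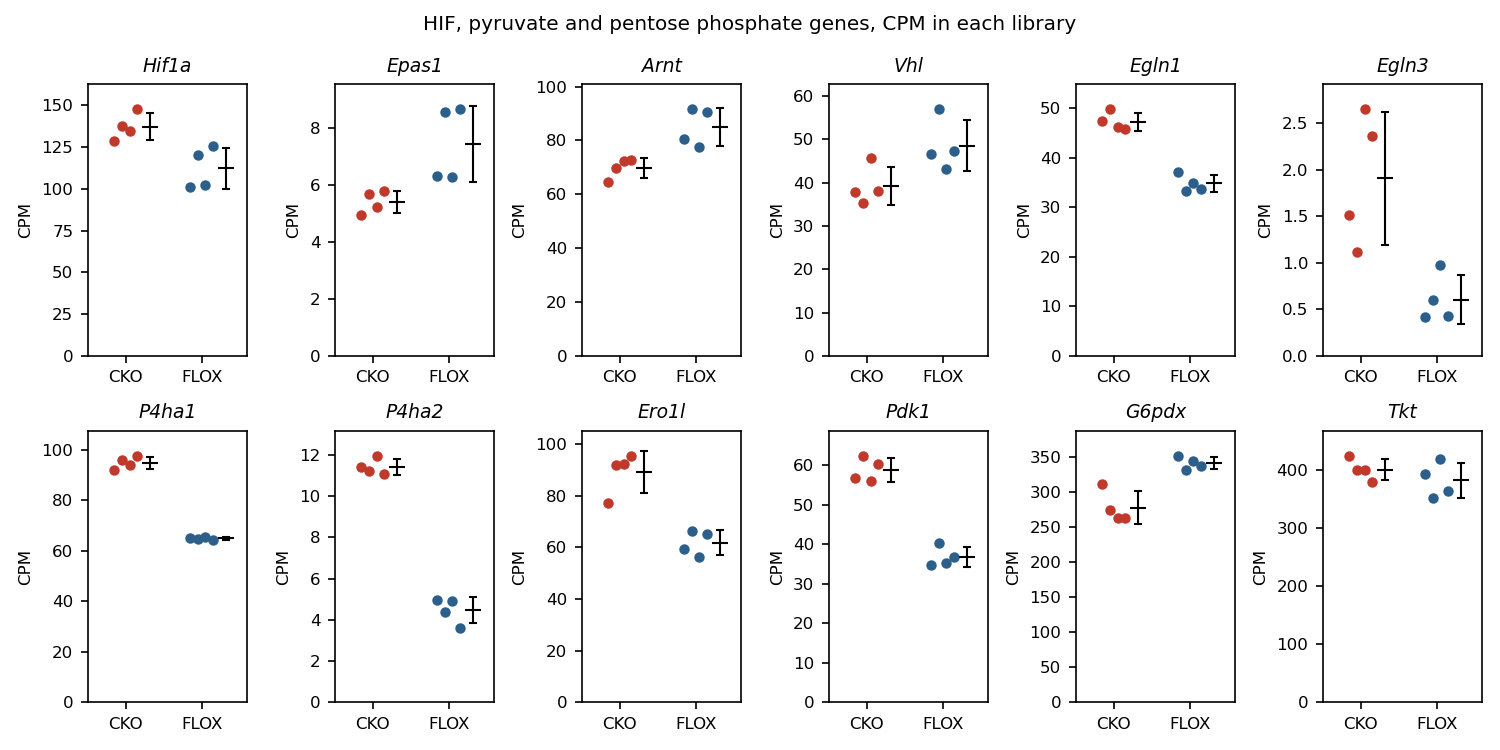
CPM of 12 genes of the HIF system, pyruvate oxidation and the pentose phosphate pathway in each library (points), with the mean and SD of each group as a bar. Hif1a, Egln1, Egln3, P4ha1, P4ha2, Ero1l and Pdk1 are higher in all CKO libraries, Epas1, Arnt and G6pdx are lower in all, and Vhl and Tkt overlap.

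Of the 5 HIF target genes outside glycolysis, 3 rose and none fell, beside 23.8% of all tested genes that were higher. P4ha2 (ENSMUSG00000018906, chromosome 11, 54100095 to 54131665, plus strand), a catalytic subunit of collagen prolyl hydroxylase, had 11.4, 11.2, 12.0 and 11.1 CPM in CKO, against 4.98, 4.39, 4.91 and 3.62 CPM in FLOX. CKO exceeded FLOX by 2.54-fold without overlap (log2 fold change 1.34 ± 0.11 (SE), adjusted p = 2.03e-06). Its paralogue P4ha1 (ENSMUSG00000019916, chromosome 10, 59323296 to 59373304, plus strand) had 91.9, 95.9, 93.8 and 97.6 CPM in CKO, against 65.0, 64.7, 65.7 and 64.3 CPM in FLOX, where the FLOX libraries hardly varied (log2 fold change 0.55 ± 0.05 (SE), adjusted p = 5.36e-06). Ero1l, the oxidase that forms disulfide bonds in the endoplasmic reticulum, had 76.9, 92.0, 92.1 and 95.4 CPM in CKO, against 59.3, 66.4, 56.3 and 65.2 CPM in FLOX. CKO replicate 2 was the lowest of its group but still above FLOX (log2 fold change 0.53 ± 0.08 (SE), adjusted p = 0.000181). Ankrd37 averaged 2.58 ± 0.469 CPM for CKO against 2.15 ± 0.495 CPM for FLOX and Higd1a, a mitochondrial protein induced by hypoxia, 24.4 ± 0.822 CPM for CKO against 20.8 ± 4.54 CPM for FLOX. Their log2 fold changes of 0.28 and 0.23 did not pass. Higd1a passed without FLOX replicate 3 (0.36, adjusted p = 0.0112), its highest FLOX library, whose removal raises the CKO excess by construction. Of the exon bases of Ankrd37, 26.2% overlap genes on the other strand.

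**Figure D5:**
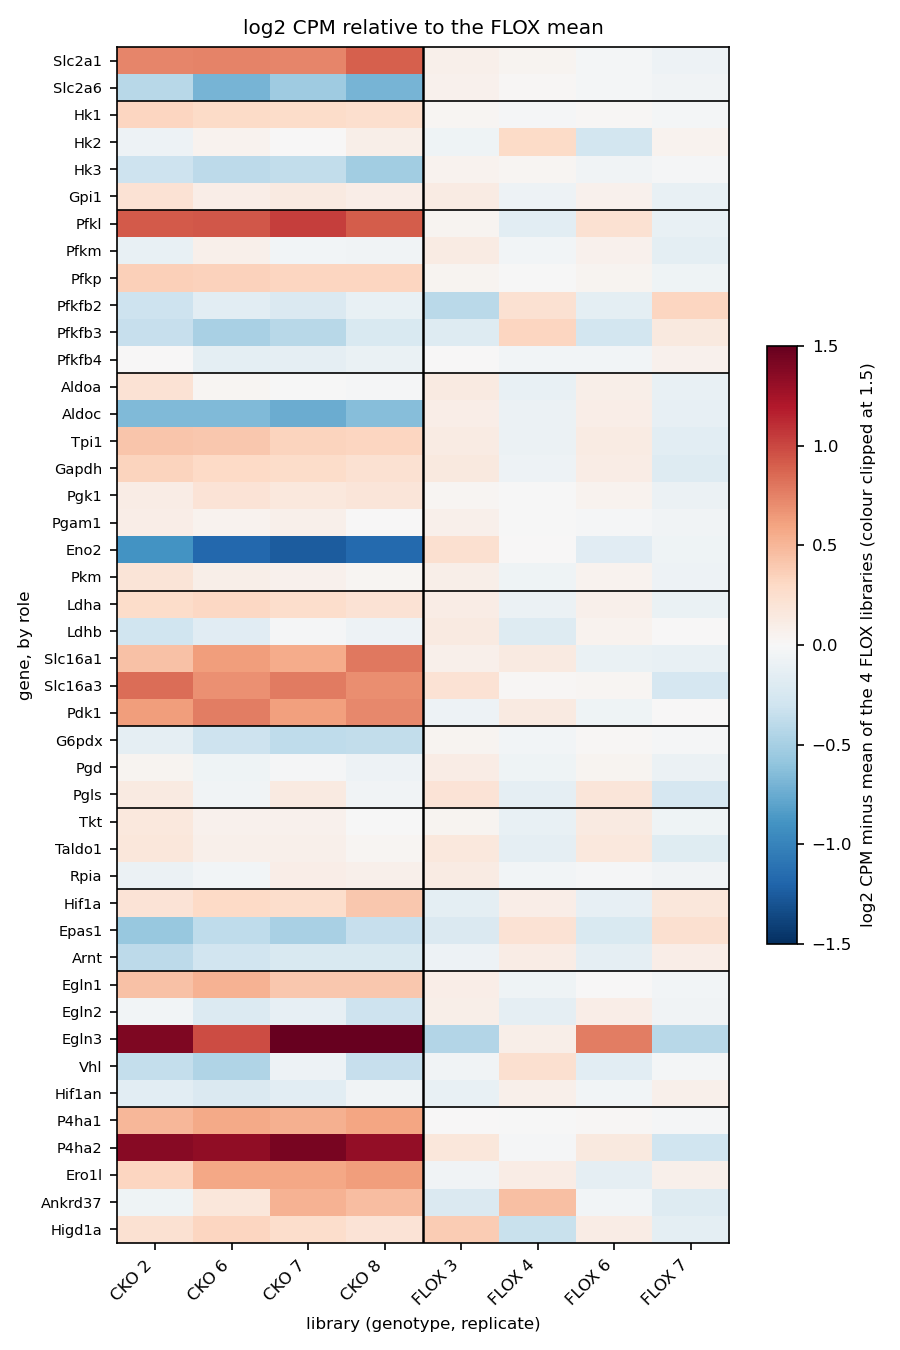
Log2 CPM of each tested member in each library relative to the mean of the 4 FLOX libraries, with members grouped by role from glucose uptake (top) to HIF target genes (bottom). CKO libraries (left) share the same colour within most called genes, while FLOX replicates 3 and 6 differ from FLOX replicates 4 and 7 in Pfkfb2, Pfkfb3, Tpi1, Gapdh, Taldo1 and Epas1.

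Further genes of the same pathways, from lists written with earlier results known, moved both ways. Each count is to be read against the 23.8% of all tested genes that were higher and the 21.6% that were lower. Of 21 other glycolysis genes 12 were tested, 5 rose and 2 fell. Tigar, a phosphatase that lowers glycolytic flux, averaged 18.6 ± 1.45 CPM for CKO against 13.6 ± 0.651 CPM for FLOX (log2 fold change 0.45 ± 0.08 (SE), adjusted p = 0.000838). Adpgk, an ADP-dependent glucokinase, rose by 0.58, Pfkfb1 by 0.66 and the transporter Slc2a3 by 0.39 on the log2 scale. The genes that fell, named after their values were seen, were the mutase Pgam2 (-0.72) and the monocarboxylate transporter Slc16a7 (-0.21). Of 10 tested genes of pyruvate entry into mitochondria none rose and 3 fell, where 21.6% of all tested genes were lower. They were Pdk2, another pyruvate dehydrogenase kinase (7.51 ± 2.01 CPM for CKO against 12.4 ± 0.794 CPM for FLOX; log2 fold change -0.73 ± 0.15 (SE), adjusted p = 0.00163), the phosphatase Pdp1 (-0.36), which reactivates pyruvate dehydrogenase, and the pyruvate carrier Mpc1 (-0.68). The pyruvate dehydrogenase subunits Pdha1 and Pdhb had log2 fold changes of 0.10 and -0.13 and were not called.

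Among 4 tested genes of glucose sensing, the transcription factor Mlxip fell (86.6 ± 5.38 CPM for CKO against 135 ± 18.6 CPM for FLOX; log2 fold change -0.64 ± 0.09 (SE), adjusted p = 0.000113), and so did the arrestin Arrdc4 (-0.59). Of 6 tested other pentose phosphate genes 3 rose and 1 fell. The phosphoribosyl pyrophosphate synthetase Prps2 averaged 72.7 ± 2.64 CPM for CKO against 51.2 ± 4.74 CPM for FLOX (log2 fold change 0.51 ± 0.07 (SE), adjusted p = 0.000117), the epimerase Rpe rose by 0.30 and H6pd, the dehydrogenase of the endoplasmic reticulum, by 0.42, whereas Prps1 fell (-0.21).

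Of 16 tested other HIF target genes, 4 rose and 5 fell, beside the same shares of 23.8% and 21.6% over all tested genes, and their median log2 change was 0.02. The chemokine receptor gene Cxcr4 averaged 154 ± 19.9 CPM for CKO against 265 ± 14.5 CPM for FLOX (log2 fold change -0.79 ± 0.09 (SE), adjusted p = 1.34e-05) and the lipid droplet gene Plin2 682 ± 29.5 CPM for CKO against 1009.7 ± 67.6 CPM for FLOX (log2 fold change -0.57 ± 0.07 (SE), adjusted p = 2.24e-05), both lower in CKO. Ddit4, an inhibitor of mTORC1, rose by 1.03 and Fam162a by 0.59. Vegfa, the angiogenic growth factor, averaged 23.0 ± 3.58 CPM for CKO against 24.6 ± 3.08 CPM for FLOX (log2 fold change -0.10), Bnip3 23.5 ± 1.64 CPM for CKO against 20.8 ± 1.32 CPM for FLOX (0.17) and Ndrg1 44.7 ± 3.60 CPM for CKO against 43.4 ± 2.77 CPM for FLOX (0.04), all 3 named after their values were seen and not called. Of 7 tested other HIF regulators, Cited2, which competes with HIF for a coactivator, fell (-0.35) and the ubiquitin ligase Siah2 rose by 0.32.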

How the data were processed

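RNA from 8 macrophage cultures was sequenced. The submitters' processing notes name HISAT2 2.0.5, HTSeq and the build mm10; the HTSeq version, the annotation and whether strand was used were not given in the sources used here, so genes with overlapping or antisense partners are uncertain. The authors deposited whole-number counts per gene symbol for each library, not normalised. The 5 classes of unassigned pairs (28.3% to 33.7% of pairs) were left out. A deposited table of the whole series held the same counts and 0 columns without a sample.

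The main test used edgeR 4.0.16 in R 4.3.3, with filterByExpr (minimum count 10, total 15; 11519 genes), TMM factors, robust dispersions, and the quasi-likelihood F test of CKO against FLOX with Benjamini-Hochberg adjustment over all tested genes (threshold 0.05). Each standard error is the absolute log2 fold change over the root of F, and 95% intervals take the moderated degrees of freedom. Common dispersion gave a biological coefficient of variation of 8.77%. CPM use TMM-scaled library sizes. Levels per kb use the union of GENCODE M21 basic exons on GRCm38, the assembly of mm10. The fit was run on simulated counts in which a small part of the genes carried known changes. In the data 45.4% of tested genes were called, so the simulation cannot show how the fit behaves at that share. Libraries of a group differed beyond counting error (chi-square over its degrees of freedom, 2.45 to 27.8) and were used as 8 samples. In FLOX this value was 6.45 for replicates 3 and 6 and 4.51 for replicates 4 and 7, against 15.6 to 27.8 for the other pairs. CKO replicate 2 gave 7.42 to 9.63 with the other CKO libraries, which gave 2.45 to 3.05 among themselves. Whether an unlabelled batch underlies this grouping was not tested. DESeq2 1.42.0 and limma-voom (limma 3.58.1) were among 18 alternatives.

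Members and lists were chosen with earlier results of these data known. Values per library were given for Opa1 and Lyz2, for called members with an absolute log2 fold change of at least 0.5 and for fixed key enzymes and regulators, and up to 4 called genes of smallest p were named per further list; Arnt, P4ha1 and other members were described as members, and Pgam2, Slc16a7, Pdha1, Pdhb, Vegfa, Bnip3, Ndrg1 and Txnip were named after their values were seen. With 4 libraries per group the spread between libraries limits precision, and in genes with few counts, such as Egln3 and P4ha2, counting error adds to it.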

Additional observations from a re-analysis of the deposited data

Results flagged for a closer look

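In 88 sets of 4 libraries (44 members, 2 groups), 3 held a library far from the other 3 relative to the range (Dixon's test at 95%), where chance gives about 1 in 20. Slc2a1 stood at 55.7 CPM in CKO replicate 8, against 49.7 to 50.2 CPM in the other CKO libraries. Pfkl stood at 42.7 CPM in CKO replicate 7, with the other CKO libraries at 39.0 to 39.5 CPM. Rpia stood at 23.3 CPM in FLOX replicate 3 and at 20.7 to 21.2 CPM in the other FLOX libraries. Slc2a1 and Pfkl remained called without these libraries (log2 fold change 0.76, adjusted p = 1.69e-05, and 0.93, adjusted p = 3.69e-05).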

How the results depend on the processing

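Of 26 called members, 19 were called in the same direction in all 18 alternatives, and none changed sign in any. The 7 others were Pfkfb3, Pgk1, Epas1 and Vhl, described above, and Hk1, Hif1a and Arnt, whose calls ended with the replicate number as a block and in no other alternative (adjusted p = 0.0507, 0.0788 and 0.124). Beyond the alternatives listed above for them, the calls of Pgk1, Epas1 and Vhl also ended with this block (adjusted p = 0.176, 0.0846 and 0.322). Numbers 6 and 7 occur in both groups, and the deviations of same-numbered libraries had correlations of 0.14 and -0.07. Pairs with unlike numbers ranged from -0.30 to 0.24, so these correlations cannot show whether same-numbered libraries were paired. Under that block 1985 genes were higher and 1518 lower, against 2739 and 2492 without it; 9 glycolysis members were higher and 5 lower, 5 hypoxia members higher and 0 lower, and no pentose phosphate call changed. That fit leaves 1 residual degree of freedom.

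Leaving out 1 library at a time gave 2491 to 2885 higher and 1782 to 2491 lower genes, 10 to 12 higher and 4 to 6 lower glycolysis members, 6 to 7 higher and 1 to 4 lower hypoxia members, and 0 higher and 1 lower pentose phosphate member in each. Without FLOX replicates 3 and 6, 3 pentose phosphate members were higher, namely Taldo1 (adjusted p = 0.00174), Tkt (0.028) and Pgls (0.0285). These libraries were the highest of FLOX for these genes, so leaving them out raises the CKO excess by construction.

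Sign changed in members near 0 that were not called. Hk2 ranged from -0.078 to 0.11 leaving out 1 library and was -0.15 without FLOX replicates 3 and 6 and -0.025 without CKO replicate 2 and FLOX replicate 6. Pfkm ranged from -0.081 to 0.016 leaving out 1 library and was 0.054 with the block, 0.063 without FLOX replicates 3 and 6 and 0.038 without CKO replicate 2 and FLOX replicate 6. Pgd ranged from -0.062 to 0.0030 and was 0.045 without FLOX replicates 3 and 6. Pgls ranged from -0.051 to 0.093 and Rpia from -0.0061 to 0.068 leaving out 1 library.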

Other observations

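Txnip, an arrestin that restrains glucose uptake and is induced by glucose, varied widely within both groups. It had 309, 296, 127 and 156 CPM in CKO, against 209.7, 121, 336 and 230.2 CPM in FLOX (log2 fold change -0.02, 95% interval -0.93 to 0.89). CKO replicates 2 and 6 and FLOX replicate 6 were the highest libraries and CKO replicate 7 and FLOX replicate 4 the lowest, so the order did not follow genotype.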
